A study of Mus musculus with 15 samples.

Results

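The bone morphogenetic protein (BMP) ligands Bmp2, Bmp4, Bmp6 and Bmp7 and the secreted BMP antagonists Grem1 (gremlin 1), Nog (noggin), Chrd (chordin) and Sostdc1 (sclerostin domain containing 1) were followed across mouse kidney fractions. They were taken as all probe sets that the platform annotation assigns to these 8 symbols. This gave 11 of the 45037 probe sets that are not controls, and 8 of 18193 genes. Of the members, 6 had 1 probe set each, Sostdc1 had 2 and Bmp7 had 3, and 0 of the 11 probe sets named a second gene.

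BMPs are secreted dimers of the TGF-β superfamily that bring together type I and type II serine/threonine kinase receptors, which phosphorylate the receptor-activated Smads, Smad1, Smad5 and Smad9, and so switch on targets such as the Id genes. Gremlin, noggin, chordin and the Sostdc1 protein bind BMPs outside the cell and keep them from their receptors, and proteases of the Bmp1 and tolloid family cleave chordin to set the ligand free. In mouse kidney, Bmp7 is needed for nephron formation and stays on in podocytes and in distal parts of the tubule, Bmp4 is known from the stroma around the ureter and tubules, Grem1 is needed for ureteric bud outgrowth, and Sostdc1, also called USAG-1, is known from distal tubules as an antagonist of Bmp7.

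All kidneys came from Col1a1-eGFPL10a transgenic mice of the strain C57/129sv, of both sexes, labelled as postnatal day 14 to 300. In these mice a collagen 1α1 promoter and enhancer element drives a green fluorescent L10a protein of the large ribosomal subunit, so the tagged ribosomes mark the cells in which that element is active. In translating ribosome affinity purification (TRAP) the tagged ribosomes are pulled down with their mRNA, the bound fraction, and the remainder is the unbound fraction. The 5 groups of 3 one-colour Affymetrix arrays were bound RNA of sham-operated kidneys at day 0 (arrays 1 to 3), of kidneys at day 2 (arrays 7 to 9) and day 5 (arrays 10 to 12) of unilateral ureteral obstruction, a model of tubular injury and fibrosis, and unbound RNA of obstructed kidneys at day 5 (arrays 13 to 15) and of sham kidneys at day 0 (arrays 4 to 6). Unbound RNA of day 2 is not analysed here. The labels name no separate animal or culture for each array, so a p-value here reflects only how far samples of a group vary, which may be technical, and the number of arrays limits precision. The series was made to profile the RNA that kidney pericytes translate, and the comparisons ask which messages differ between the bound and the unbound fraction and between days of obstruction.

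Levels are log2 normalized intensities, and each array has a floor, its highest negative-control probe set, which lay between 3.41 and 5.09 on that scale. Median deposited intensities ranged between 16.4 and 199. Arrays 6, 9, 12 and 15, from 4 of the 5 groups, were bright, with a mean of the spiked hybridization controls of 12114 to 12905 against 4727 to 5864 on the other 11 arrays. The 5′ to 3′ ratio of Gapdh was 0.0269 on array 11 and 0.178 to 0.583 on all 14 others. Arrays of a group correlated at 0.918 to 0.973 over genes. The labelled cells were checked by markers. Of 5 fibroblast markers, 1 was higher in the bound than in the unbound fraction at day 5 and 4 at day 0. Of 5 pericyte and smooth muscle markers, likewise 1 was higher at day 5 and 4 at day 0. Of all genes tested, 14.1% passed in either direction at day 5 and 8.92% at day 0. The day 5 counts of 1 of 5 are near that share. The log2 differences at day 5 were 0.37 to 1.7 for fibroblast and 0.42 to 2.43 for pericyte and smooth muscle markers. Podocyte markers were also higher in bound RNA, 2 of the 4 measured at day 5 and 4 of 4 at day 0. Whether podocytes carry the tag was not tested.

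Promoters are shown for Bmp4, Grem1 and Chrd, the members with a promoter sequence here that passed the test in at least 1 comparison, Bmp4 lower after obstruction and Grem1 and Chrd higher in bound RNA of day 5. RefSeq (GRCm38.p6) promoter sequences were matched for 4 of the 8 members, the fourth being Bmp6, while Bmp2, Bmp7, Nog and Sostdc1 were not matched. Each runs 300 bases, 250 before and 50 after the annotated start, 5′ to 3′ on the strand of the gene. RefSeq gives the Chrd gene a span from 20731425 to 20742384, so the start used for its window lies inside that span and not at its first base. Capitals mark matches, on either strand and with overlaps counted, to a BMP-responsive Smad motif (GGCGCC), to the GC box (GGGCGG) and to a short Smad-binding motif (CAGAC), and the TATA box (TATAAA) was searched too.
Bmp4, chr14:46390620-46390919, minus strand: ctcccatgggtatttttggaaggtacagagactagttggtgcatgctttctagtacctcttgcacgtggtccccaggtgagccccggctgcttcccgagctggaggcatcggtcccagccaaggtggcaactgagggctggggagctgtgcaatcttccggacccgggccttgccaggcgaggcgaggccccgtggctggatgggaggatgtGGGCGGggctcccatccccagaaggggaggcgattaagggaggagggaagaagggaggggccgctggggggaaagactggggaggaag
Grem1, chr2:113758599-113758898, minus strand: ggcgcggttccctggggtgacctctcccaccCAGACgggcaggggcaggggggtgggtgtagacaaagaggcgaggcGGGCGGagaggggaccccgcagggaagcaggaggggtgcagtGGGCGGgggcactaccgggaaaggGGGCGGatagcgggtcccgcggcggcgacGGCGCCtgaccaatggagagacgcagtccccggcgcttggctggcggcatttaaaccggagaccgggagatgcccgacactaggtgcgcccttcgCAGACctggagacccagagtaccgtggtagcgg
Chrd, chr16:20732877-20733176, plus strand: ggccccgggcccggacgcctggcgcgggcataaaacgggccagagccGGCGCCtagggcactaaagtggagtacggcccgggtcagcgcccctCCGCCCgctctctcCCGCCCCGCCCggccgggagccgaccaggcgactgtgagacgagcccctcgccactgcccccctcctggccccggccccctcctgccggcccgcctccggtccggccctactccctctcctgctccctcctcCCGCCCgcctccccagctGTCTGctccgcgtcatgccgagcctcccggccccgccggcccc

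The Bmp4 window held 1 GC box and 0 matches to either Smad motif. In the Grem1 window there were 3 GC boxes, 1 BMP-responsive motif and 2 short Smad motifs. The Chrd window held 4 GC boxes, of which 2 overlap, 1 BMP-responsive motif and 1 short Smad motif. The TATA box was in 0 of these windows. Of all 32851 promoters of this length, 11.9% hold the BMP-responsive motif, 35.7% the GC box, 13.6% the TATA box and 49.6% the short Smad motif. A match is a run of letters and not a bound site.

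**Figure D1:**
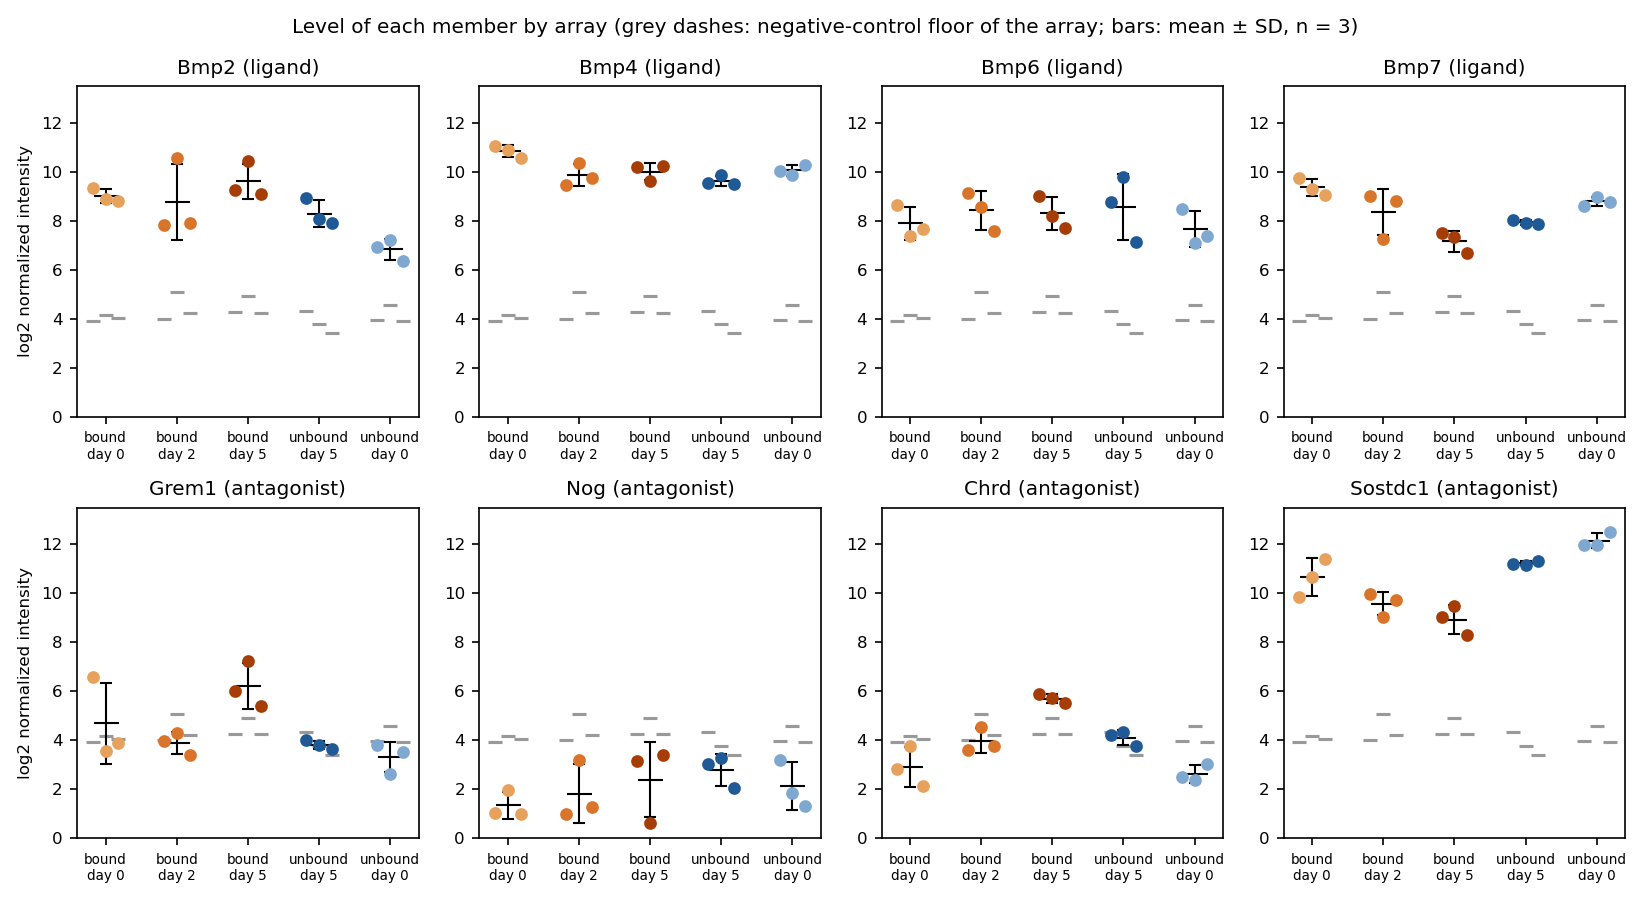
Log2 normalized intensity of each member (the brightest probe set by its mean) in the 3 bound groups (day 0, 2 and 5) and the 2 unbound groups (day 5 and 0). Points are arrays, bars are the mean ± SD of 3 arrays, and grey dashes are the negative-control floor of each array. Bmp7 and Sostdc1 decline over the bound groups, Chrd leaves the floor by bound day 5, and Nog lies under the floor on all 15 arrays.

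Over the bound fraction, the members went opposite ways after obstruction. Bmp7 fell 4.56-fold, Sostdc1 3.3-fold and Bmp4 1.77-fold at day 5 relative to day 0, while Chrd rose at least 3.15-fold. Between fractions at day 5, Grem1 was at least 4.9-fold and Chrd 3.02-fold higher in bound than in unbound RNA, and Sostdc1 was 4.92-fold lower. The Bmp4 call at day 5 ended without any single array of the groups compared, while the Bmp7 call held in every alternative. The calls between fractions at day 5 all ended without the 4 bright arrays, a fit with fewer arrays in each of these groups. The log2 differences there were 2.66 in place of 2.40 for Grem1, 1.47 in place of 1.59 for Chrd and -1.96 in place of -2.30 for Sostdc1. Bmp2 and Bmp6 passed no test. Folds are taken from the log2 scale, and a group whose mean did not clear the floor had its arrays raised to the floor, which gives a fold of at least the size stated.

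Bmp2, a ligand best known for bone induction, read 9.33, 8.89 and 8.81 in bound RNA of day 0, 7.82, 10.56 and 7.91 at day 2, and 9.27, 10.43 and 9.11 at day 5. In unbound RNA it read 8.91, 8.06 and 7.92 at day 5 and 6.92, 7.21 and 6.37 at day 0. Every bound array lay above every unbound array of the same day, and the bound arrays of day 2 were split, with array 8 far above the other two. The log2 difference of bound minus unbound was 1.31 ± 0.63 (SE) at day 5 (limma, adjusted p = 0.187) and 2.18 ± 0.63 at day 0 (limma, adjusted p = 0.0513), neither past the threshold of 0.05. In unbound RNA the difference of day 5 minus day 0 was 1.46 ± 0.63 (limma, adjusted p = 0.176), with all day 5 arrays above all day 0 arrays. In bound RNA the same difference was 0.59, with a 95% interval of -0.78 to 1.97. The day 0 difference between fractions passed with array weights, a stricter filter, a pseudocount of 16, a trended prior or only the 2 groups in the fit. Without array 8, day 5 minus day 2 in bound RNA passed as well (limma, adjusted p = 0.0353).

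Bmp4, a ligand of the stroma in the developing kidney, read 11.05, 10.87 and 10.57 in bound RNA of day 0, 9.47, 10.35 and 9.76 at day 2, and 10.19, 9.62 and 10.22 at day 5. All arrays of day 2 and day 5 lay below all arrays of day 0. The fall at day 2 was -0.97 ± 0.27 on the log2 scale, 1.96-fold (limma, adjusted p = 0.0407), and that at day 5 was -0.82 ± 0.27 (limma, adjusted p = 0.043). Day 5 minus day 2 was 0.15 ± 0.27. In unbound RNA Bmp4 read 9.53, 9.86 and 9.50 at day 5 and 10.02, 9.85 and 10.29 at day 0, a difference of -0.42 ± 0.27 (limma, adjusted p = 0.374), with overlapping groups. Bound minus unbound was 0.38 ± 0.27 at day 5 (limma, adjusted p = 0.367) and 0.78 ± 0.27 at day 0 (limma, adjusted p = 0.0927). Both Bmp4 calls ended in many fits: the one at day 2 without array 1, 2, 3, 7 or 9 (adjusted p = 0.0548 to 0.106), the one at day 5 without any single array of its 2 groups (0.0543 to 0.14). With arrays centred on their medians the 2 differences were -0.87 and -0.55 (adjusted p = 0.231 and 0.337).

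Bmp6, known in mouse liver as the ligand that tunes hepcidin, varied widely within every group. Its bound arrays read 8.66, 7.37 and 7.65 at day 0, 9.15, 8.56 and 7.57 at day 2 and 9.03, 8.18 and 7.71 at day 5. Its unbound arrays read 8.78, 9.77 and 7.14 at day 5 and 8.49, 7.11 and 7.38 at day 0. All of its groups overlapped. The 95% intervals left room for sizeable differences, for example -1.20 to 1.68 for bound minus unbound at day 0 and -1.03 to 1.85 for bound day 5 minus day 0.

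Bmp7, the ligand most studied in adult kidney, had 3 probe sets. The one with the highest mean, 1435479_at, read 9.74, 9.29 and 9.06 in bound RNA of day 0, 9.02, 7.27 and 8.80 at day 2, and 7.50, 7.32 and 6.69 at day 5. Day 0 lay above both later days in every array, and array 8 was already down among the arrays of day 5. The difference of day 5 minus day 0 was -2.19 ± 0.40 on the log2 scale (limma, adjusted p = 0.00251). It held under every alternative run, with each array left out included. Day 2 minus day 0 was -1.0 ± 0.40 (limma, adjusted p = 0.142; without array 7 it passed, at 0.0453), and day 5 minus day 2 was -1.19 ± 0.40 (limma, adjusted p = 0.178; without array 8 it passed, at 0.00775).

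The other Bmp7 probe sets gave the same direction in bound RNA. In a fit of every probe set, day 5 minus day 0 was -2.92 ± 0.37 for 1418910_at (limma, adjusted p = 0.000603) and -2.70 ± 0.67 for 1432410_a_at (limma, adjusted p = 0.0232), beside -2.19 ± 0.41 for 1435479_at (limma, adjusted p = 0.00625). All 3 passed, where 11.2% of all probe sets did. The weakest, 1432410_a_at, read 1.25, 3.06 and 2.54 at day 5, with 0 of 3 arrays above the floor, and 5.95, 5.20 and 3.79 at day 0, with 2 of 3 above it. Its difference of -2.70 thus rests on undetected levels at day 5, and with these raised to the floor the fall was at least 1.42-fold. In the second, 1418910_at, bound RNA read 8.75, 8.25 and 8.62 at day 0, 7.16, 6.04 and 6.98 at day 2 and 5.82, 5.82 and 5.21 at day 5, falling already at day 2 by 1.81 ± 0.37 (limma, adjusted p = 0.019; 3.69% of all probe sets passed).

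In unbound RNA 1 of the 3 Bmp7 probe sets passed. 1418910_at read 6.48, 5.37 and 6.35 at day 5 against 7.86, 8.05 and 8.14 at day 0, a fall of -1.95 ± 0.37 (limma, adjusted p = 0.0123; 3.67% of all probe sets passed). 1435479_at read 8.04, 7.90 and 7.87 against 8.62, 8.97 and 8.77, a difference of -0.85 ± 0.40 in the fit of genes (limma, adjusted p = 0.212). 1432410_a_at read 3.23, 2.41 and 4.53 at day 5, with 1 of 3 arrays above the floor, against 6.21, 5.54 and 5.95 at day 0, which gives at least 3.22-fold lower at day 5 and did not pass (limma, adjusted p = 0.0617). In each of the 3, all arrays of day 5 lay below all arrays of day 0. Groups did not overlap, in either direction, for 45.9% of all genes tested in this comparison. With the mean of the probe sets as the value of the gene, the difference was -1.77 (limma, adjusted p = 0.0134), so the call in unbound RNA depends on the probe set read.

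Between fractions, 1435479_at was below unbound RNA in all bound arrays of day 5 (7.50, 7.32 and 6.69 against 8.04, 7.90 and 7.87) and above it in all bound arrays of day 0 (9.74, 9.29 and 9.06 against 8.62, 8.97 and 8.77). Neither difference passed, at -0.76 ± 0.40 on day 5 (limma, adjusted p = 0.216) and 0.58 ± 0.40 on day 0 (limma, adjusted p = 0.397). The change between them was -1.34 ± 0.56 (limma, unadjusted p = 0.0335, adjusted p = 0.314). The other probe sets did not share this pattern in full. For 1418910_at the fractions overlapped at day 5 (-0.45 ± 0.37), and the change was -0.97 ± 0.53 (limma over probe sets, adjusted p = 0.509). For 1432410_a_at bound RNA was already lower at day 0 (-0.92 ± 0.67, overlapping groups), and the change was -0.19 ± 0.95. With the mean of probe sets, the day 0 difference was 0.06 (limma, adjusted p = 0.95).

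Grem1, an antagonist of Bmp2, Bmp4 and Bmp7, was close to the floor except in bound RNA of day 5. It read 6.60, 3.57 and 3.89 in bound RNA of day 0, where array 1 alone was above its floor, 3.98, 4.28 and 3.40 at day 2, with 0 of 3 above the floor, and 6.03, 7.23 and 5.40 at day 5, with 3 of 3. Unbound RNA read 4.00, 3.80 and 3.66 at day 5, with 2 of 3 above the floor, and 3.82, 2.64 and 3.52 at day 0, with 0 of 3. At day 5 all bound arrays lay above all unbound arrays, by 2.40 ± 0.69 on the log2 scale (limma, adjusted p = 0.0394). Bound day 5 minus day 0 was 1.53 ± 0.69 (limma, adjusted p = 0.13), and without array 1 it was 2.50 (limma, adjusted p = 0.00608). Day 5 minus day 2 was 2.33 ± 0.69, at least 3.42-fold (limma, adjusted p = 0.149). The call between fractions at day 5 ended without array 10, 11, 13, 14 or 15 (adjusted p = 0.0799 to 0.119) and with every probe set fitted separately (0.0673).

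Chrd, the antagonist that Bmp1 and its relatives cleave, was above the floor in bound RNA of day 5 and on 2 of 3 arrays of unbound RNA of day 5. Bound RNA read 2.83, 3.76 and 2.13 at day 0, 3.62, 4.56 and 3.78 at day 2 and 5.87, 5.73 and 5.51 at day 5. Unbound RNA read 4.23, 4.35 and 3.75 at day 5 and 2.49, 2.36 and 3.04 at day 0. In both fractions every array of day 5 lay above every array of day 0. The log2 difference of day 5 minus day 0 was 2.79 ± 0.39 in bound RNA (limma, adjusted p = 0.000503), which held in all 16 alternatives that tested it (the stricter filter left Chrd out), and 1.48 ± 0.39 in unbound RNA (limma, adjusted p = 0.0302). There the arrays of day 0 had floors of 3.93 to 4.57, a range that overlaps the readings at day 5, so no fold is given. At day 5, bound minus unbound was 1.59 ± 0.39 (limma, adjusted p = 0.0202).

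At day 0 both fractions were at the floor for Chrd and no fold between them is given. The change of the bound minus unbound difference between day 5 and day 0 was 1.32 ± 0.55 (limma, unadjusted p = 0.0328, adjusted p = 0.313). The unbound call ended without array 4, 5, 13 or 14 (adjusted p = 0.103 to 0.111), with every probe set fitted separately (0.0683), a trended prior (0.112) or a pseudocount of 16 (0.0764), and without the 4 bright arrays (0.0939). The call between fractions ended without array 10, 13, 14 or 15 (0.0501 to 0.0782) and with a trended prior (0.0685). Day 2 minus day 0 in bound RNA passed without array 2 (adjusted p = 0.0294), and day 5 minus day 2, which was 1.72 ± 0.39 or at least 2.39-fold (limma, adjusted p = 0.0757), passed without array 8 (0.0164).

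Nog, noggin, was under the floor on all 15 arrays, with log2 intensities between 0.63 and 3.41, and did not pass the filter on low values. Fitted without the filter it gave adjusted p = 0.374 to 0.905 (limma) over the 7 comparisons. A level below the floor was not detectable here, which does not show that the message is absent.

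Sostdc1 went the other way from Grem1 and Chrd. Its probe set 1449340_at read 9.04, 9.46 and 8.28 in bound RNA of day 5 against 11.19, 11.16 and 11.33 in unbound RNA, and 9.86, 10.68 and 11.41 in bound RNA of day 0 against 11.95, 11.98 and 12.50 in unbound RNA. All bound arrays lay below all unbound arrays of the same day. The log2 difference of bound minus unbound was -2.30 ± 0.40 at day 5 (limma, adjusted p = 0.00557) and -1.49 ± 0.40 at day 0, 2.81-fold (limma, adjusted p = 0.0399). The change between them was -0.81 ± 0.57 (limma, adjusted p = 0.54).

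In bound RNA of day 2, Sostdc1 read 9.97, 9.04 and 9.72. Day 2 minus day 0 was -1.07 ± 0.40 (limma, adjusted p = 0.119; without array 1 it passed, at 0.0412), and day 5 minus day 0 was -1.72 ± 0.40 (limma, adjusted p = 0.00987), with all day 5 arrays below all day 0 arrays. Unbound RNA of day 5 was lower than that of day 0 in every array as well, by a difference of -0.91 ± 0.40 that did not pass (limma, adjusted p = 0.184). The second probe set, 1460250_at, gave -2.30 ± 0.47 for bound day 5 minus day 0 (limma over probe sets, adjusted p = 0.0095) and -2.38 ± 0.47 for bound minus unbound at day 5 (limma over probe sets, adjusted p = 0.0181; 5.18% of all probe sets passed). At day 0 neither probe set passed in that fit (adjusted p = 0.0778 and 0.225; 2.95% of all probe sets passed). The day 0 call ended without array 1, 2, 4, 5 or 6 (0.0875 to 0.128), and the bound day 5 call with only its 2 groups in the fit (0.0563) or without the 4 bright arrays (0.079).

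**Figure D2:**
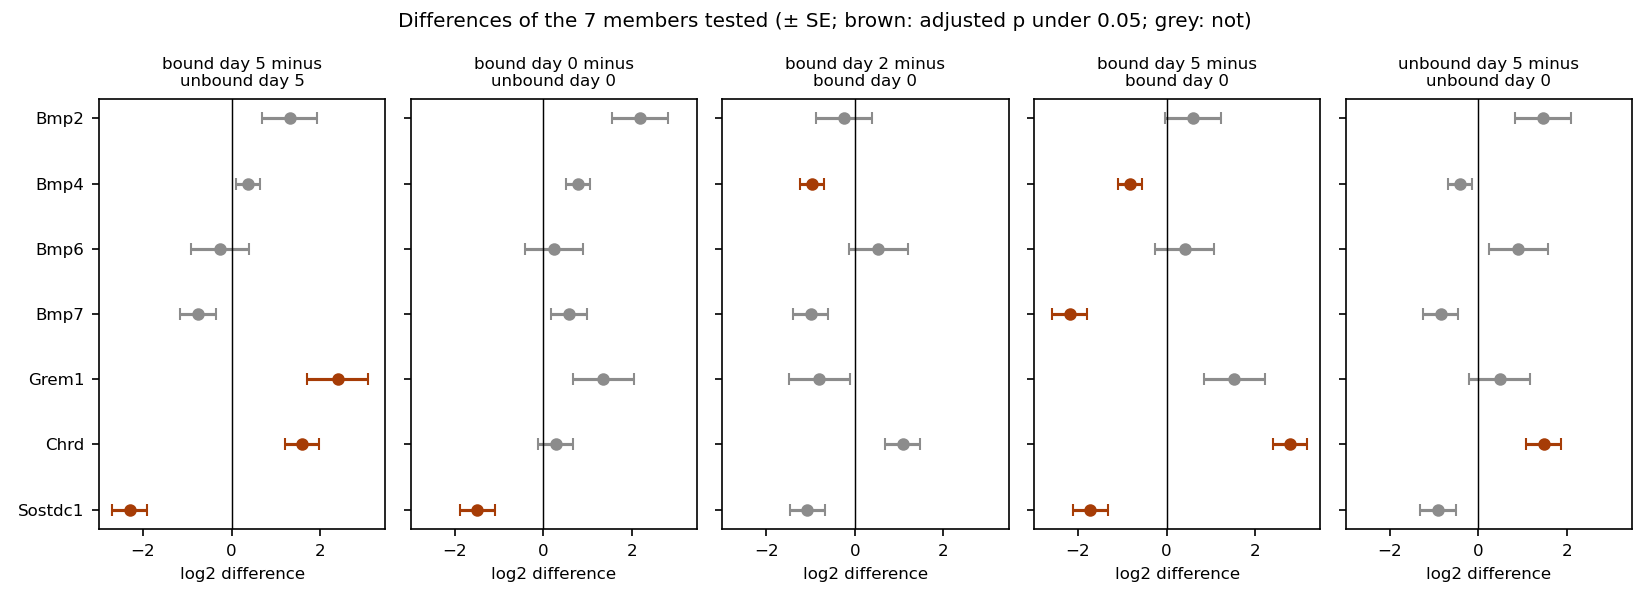
Log2 difference ± SE (limma) of the 7 members tested, in 5 comparisons, with members running down each panel. Brown points have an adjusted p under 0.05 and grey points do not. Bmp7 and Sostdc1 lie left of 0 and Chrd right of 0 for bound day 5 minus day 0, at -2.19, -1.72 and 2.79.

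Counted over the 7 members tested, 3 passed for bound against unbound RNA at day 5 (Grem1 and Chrd higher, Sostdc1 lower), where 14.1% of the 16864 genes tested passed. At day 0 the count was 1, Sostdc1, against 8.92% of all genes. Without the 4 bright arrays both counts were 0 by limma, in a fit whose share of all genes passing is not given here. For the change between those differences 0 members passed in limma (2 at an unadjusted p under 0.05), against 0.0178% of all genes. In bound RNA, 1 passed at day 2 relative to day 0 (background 9.25%), 4 at day 5 relative to day 0 (background 23.7%), and 0 at day 5 relative to day 2 in limma (3 at an unadjusted p under 0.05, background 0.587%). In unbound RNA, 1 passed at day 5 relative to day 0, Chrd, against 10.4% of all genes. The comparisons of days in bound RNA share arrays, and so do those of fractions and days, so their counts are not independent of each other.

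Groups did not overlap for 5 members between fractions at day 5 (43% of all genes) and for 4 at day 0 (36.8% of all genes). In bound RNA the count was 2 at day 2 relative to day 0 (21.5%), 4 at day 5 relative to day 0 (40.4%) and 2 at day 5 relative to day 2 (14.7%), and in unbound RNA it was 4 (45.9%). The median log2 difference of the 4 ligands was 0.06 for bound minus unbound at day 5 and 0.68 at day 0, where the medians of all genes were 0.03 and -0.13. For the 3 antagonists tested it was 1.59 at day 5 and 0.28 at day 0, and with groups at the floor set to the floor it was 1.59 and -0.11. In bound RNA of day 5 minus day 0, ligands had a median of -0.20 and antagonists of 1.53, against 0.12 for all genes. The antagonist median there is the value of Grem1, which did not pass, with Sostdc1 at -1.72 and Chrd at 2.79. The ligands ranged between -2.19 and 0.59. Between fractions at day 5 the antagonists ranged between -2.30 and 2.40.

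**Figure D3:**
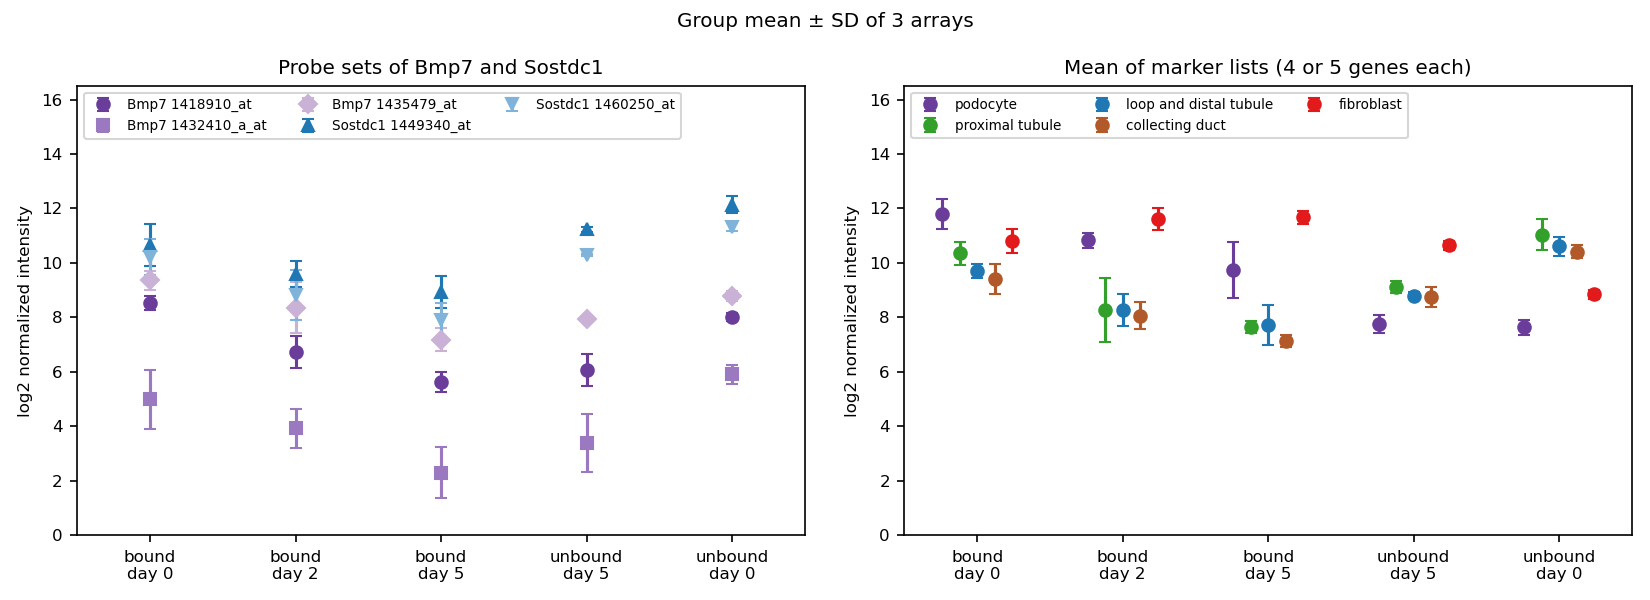
Group means ± SD of 3 arrays, as log2 normalized intensity, of the Bmp7 and Sostdc1 probe sets (left) and of 5 cell type marker lists (right). The 3 Bmp7 and the 2 Sostdc1 probe sets are lower in bound day 5 than in bound day 0, as are the podocyte and tubule lists, and the fibroblast list is not.

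Several marker lists of other kidney cells were, like Bmp7 and Sostdc1, lower in bound RNA of day 5 than of day 0. In unbound RNA the podocyte list did not fall. The mean log2 level of the podocyte list was 11.8 in bound RNA of day 0 (arrays 11.44 to 12.45), 10.83 at day 2 (10.52 to 11.03) and 9.73 at day 5 (8.64 to 10.69), and 7.76 and 7.63 in unbound RNA of day 5 and day 0, where Nphs1 was at the floor. The 4 podocyte markers measured all fell in bound RNA of day 5 relative to day 0. The loop and distal tubule list averaged 9.7, 8.27 and 7.72 in bound RNA of days 0, 2 and 5, with arrays of day 5 at 7.27 to 8.59 and of day 0 at 9.45 to 9.97, and 8.8 and 10.61 in unbound RNA of days 5 and 0. All 5 of its genes fell in bound RNA of day 5 relative to day 0, and Pvalb was at the floor in bound RNA of days 2 and 5 and in unbound RNA of day 5. The collecting duct list averaged 9.41, 8.06 and 7.13 in bound RNA (day 5 arrays 6.91 to 7.36, day 0 arrays 8.8 to 9.78) and 8.74 and 10.41 in unbound RNA of days 5 and 0, and 5 of 5 of its genes fell in bound RNA of day 5. The proximal tubule list averaged 10.35, 8.27 and 7.64 in bound RNA of days 0, 2 and 5 (day 5 arrays 7.49 to 7.88, day 0 arrays 9.93 to 10.76) and 9.11 and 11.04 in unbound RNA of days 5 and 0. Of its 5 genes 4 fell in bound RNA of day 5, with a median log2 difference of -3.15. Of 5 endothelial genes 2 fell there, with a median of -1.40. Of 5 urothelium genes 0 passed there by limma, with a median of 0.12. Of all genes tested, 23.7% passed in that comparison in either direction.

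For bound against unbound RNA at day 5, 3 of 5 loop and distal tubule genes and 2 of 5 collecting duct genes were lower in bound RNA, as Sostdc1 was, and so were 3 of 5 endothelial genes, 1 of 5 proximal tubule genes and 1 of 5 macrophage genes. Of all genes tested, 14.1% passed there in either direction. The part of these cell types in the results for Bmp7 and Sostdc1 was not tested. The fibroblast list averaged 10.82, 11.61 and 11.67 in bound RNA of days 0, 2 and 5 and 10.64 and 8.85 in unbound RNA of days 5 and 0, and 2 of its 5 genes rose in bound and 3 in unbound RNA of day 5 relative to day 0. The macrophage list averaged 8.18, 8.62 and 9.25 in bound RNA of days 0, 2 and 5 and 10.82 and 8.74 in unbound RNA of days 5 and 0, with 1 of 5 genes rising in bound and 3 in unbound RNA. The pericyte and smooth muscle list averaged 11.45, 11.3 and 11.65 in bound RNA and 10.45 and 9.21 in unbound RNA of days 5 and 0, and likewise 1 rose in bound and 3 in unbound RNA. For day 5 relative to day 0, 23.7% of all genes passed in bound and 10.4% in unbound RNA. The part of these marker lists in the results for Grem1 and Chrd was not tested. In whole fractions, fewer cells of a type and less RNA per cell cannot be told apart.

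Within the 15 arrays, the genes most like each member by Pearson's r of log2 intensities were listed as a description. The points share groups and array brightness, so r within groups, from deviations from group means, is given beside it. For Bmp2 they were Ssbp3, Itm2c and Elk1 (r = 0.923, 0.922 and 0.919, within groups 0.775 to 0.826). For Bmp4 they were Coch, Abca8a and Edn3 (r = 0.931, 0.924 and 0.91, within groups 0.697 to 0.858). Bmp6 had weaker matches, Dcaf8, Lgmn and Slco2a1 (r = 0.816, 0.78 and 0.754, within groups 0.709 to 0.829). Bmp7 was most like Mtcl1, Dock8 and Mgat5 (r = 0.952, 0.932 and 0.918, within groups 0.775 to 0.839). Among antagonists, Grem1 was most like Asic3, Rmdn2 and Med26 (r = 0.861, 0.858 and 0.853, within groups 0.587 to 0.732), Chrd like Cnksr3, Vat1 and Pon2 (r = 0.962, 0.952 and 0.95, within groups 0.623 to 0.887), and Sostdc1 like Cytip, Ipcef1 and Epb41l4b (r = 0.977, 0.972 and 0.971, within groups 0.866 to 0.92). Between members, r ranged between -0.815 for Bmp7 with Chrd, which was -0.278 within groups, and 0.68 for Bmp2 with Grem1, which was 0.407 within groups. Grem1 and Chrd lay under the floor on most of the 15 arrays, so r values with either rest largely on undetected levels.

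The rest of the pathway was read from 5 further lists of 68 genes, 60 of which were tested. Bmp10 and Tll2 did not pass the filter, and the remaining untested genes were not analysed here. The share of all genes tested that passed in either direction is given in brackets. Over these lists 8 genes were higher and 4 lower in bound than in unbound RNA at day 5 (14.1%). At day 0, 5 were higher and 1 lower (8.92%), and 0 passed in limma for the change between them (0.0178%). In bound RNA 4 rose and 3 fell at day 2 relative to day 0 (9.25%). At day 5 relative to day 0, 6 rose and 7 fell (23.7%), and 1 rose at day 5 relative to day 2 (0.587%). In unbound RNA 3 rose and 1 fell (10.4%). Of the 10 calls between fractions at day 5 that were run under the alternatives, 0 passed in limma without the 4 bright arrays. The share of all genes passing in that fit is not given here. The median log2 difference of the 60 genes in bound RNA of day 5 minus day 0 was 0.01, or 0.23 with groups at the floor set to the floor, against 0.12 for all genes.

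**Figure D4:**
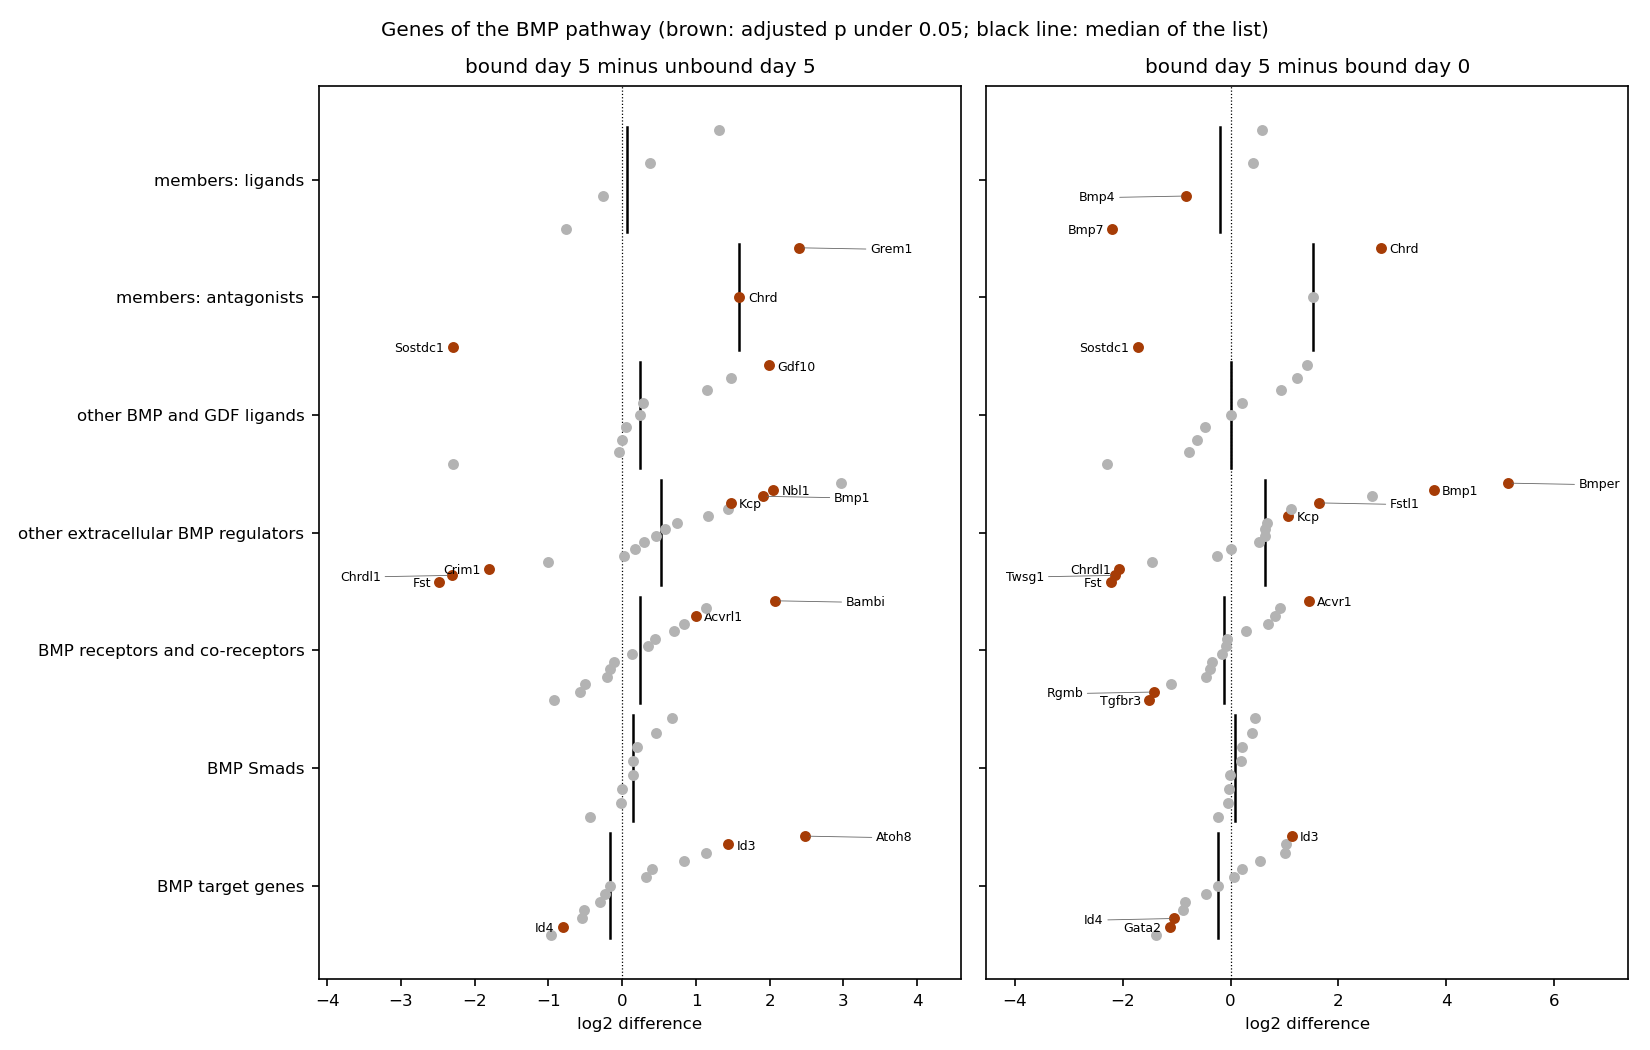
Log2 difference of each tested gene of the members and of 5 further lists, for bound day 5 minus unbound day 5 (left) and bound day 5 minus bound day 0 (right). Brown points have an adjusted p under 0.05 and are named, and black lines are list medians. The Smad list has 0 brown points in both panels, and the extracellular regulators hold the points farthest to the right, Bmp1 and Bmper, in the right panel.

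Of 9 other ligands tested, Gdf10, a relative of Bmp3, was the 1 gene to pass, and only between fractions. There 14.1% of all genes passed at day 5 and 8.92% at day 0. It read 8.72, 8.04 and 7.86 in bound against 6.55, 6.30 and 5.80 in unbound RNA of day 5, a difference of 1.99 ± 0.58 (limma, adjusted p = 0.0407), and 9.93, 7.65 and 8.93 against 7.16, 6.29 and 6.34 at day 0, a difference of 2.24 ± 0.58 (limma, adjusted p = 0.0336). Each bound array was above each unbound array of its day. The day 0 call ended without array 1, 3, 4, 5 or 6 (adjusted p = 0.0633 to 0.108) and the day 5 call without any array of its 2 groups (0.0685 to 0.125).

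Among 16 other extracellular regulators, 4 rose and 3 fell in bound RNA of day 5 relative to day 0, where 23.7% of all genes passed. Bmp1, the protease that cleaves chordin and procollagens, read 6.31, 6.56 and 6.26 at day 0, 8.42, 9.47 and 9.15 at day 2 and 10.23, 9.79 and 10.42 at day 5, and 8.29, 8.30 and 8.12 in unbound RNA of day 5 against 5.50, 5.30 and 5.94 of day 0. No 2 groups of the bound fraction overlapped. The rise in bound RNA was 6.23-fold at day 2 (limma, adjusted p = 0.000148) and 13.7-fold at day 5 (limma, adjusted p = 6.82e-06), and in unbound RNA at day 5 it was 6.31-fold (limma, adjusted p = 0.000172). At day 5 Bmp1 was 3.76-fold higher in bound than in unbound RNA (limma, adjusted p = 0.00316). These are values of 1 of its probe sets. With the mean of its probe sets, the log2 differences were 1.25, 1.34 and 1.37 (adjusted p = 0.0784, 0.034 and 0.0518) and between fractions 0.28 (0.693).

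Bmper, a chordin-like BMP-binding protein, was under the floor on all day 0 arrays of both fractions and above it on all others. In bound RNA it read 5.88, 7.44 and 8.74 at day 2 and 6.03, 8.23 and 6.88 at day 5. It rose at least 9.91-fold at day 2 (limma, adjusted p = 0.000953) and at least 8-fold at day 5 (limma, adjusted p = 0.000809) relative to day 0. Kcp, kielin/chordin-like protein, which enhances BMP signalling in mice, read 9.34, 9.51 and 9.17 at day 5 against 7.27, 7.92 and 7.12 at day 2 in bound RNA, a rise of 1.90 ± 0.35 (limma, adjusted p = 0.0319) that ended without array 7, 9, 10, 11 or 12 (0.0719 to 0.109). Fstl1, a secreted follistatin-like protein, was 12.90 ± 0.15 (SD, n = 3) in bound RNA of day 5 and 11.26 ± 0.21 in that of day 0, and rose 5.35-fold in unbound RNA (limma, adjusted p = 4.56e-05), a log2 difference of 2.42 that was 1.34 with the mean of its probe sets. These Fstl1 levels are of 1 probe set. In bound RNA, day 2 minus day 0 was 1.36 for it (limma, adjusted p = 0.00164) but 0.45 with the mean of probe sets (0.372). Nbl1, the DAN antagonist, was 4.13-fold higher in bound than in unbound RNA at day 5 (limma, adjusted p = 0.0026) and 2.45-fold at day 0 (limma, adjusted p = 0.0145; 0.0508 and 0.0536 without array 4 or 5).

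The 3 that fell in bound RNA of day 5 were Fst (follistatin), Twsg1 (a chordin partner) and Chrdl1 (chordin-like 1). Twsg1 read 10.89, 9.47 and 11.65 at day 5 against 12.76, 12.74 and 12.94 at day 0, a difference of -2.14 ± 0.49 (limma, adjusted p = 0.00913), and Fst 5.19, 5.70 and 7.15 against 7.72, 7.79 and 9.21, a difference of -2.22 ± 0.64 (limma, adjusted p = 0.0264). Array 11 was the lowest for Twsg1. Averaging probe sets ended both calls, at -0.73 (adjusted p = 0.106) and -0.37 (0.63), and the Fst call ended without array 3, 10 or 11 (0.0709 to 0.105). Fst and Chrdl1 were lower in bound than in unbound RNA of day 5 too, 5.59-fold and 4.97-fold (limma, adjusted p = 0.0258 and 0.04). Those calls ended without array 10, 11, 13 or 15 for Fst (0.0663 to 0.09) and 11, 12, 13, 14 or 15 for Chrdl1 (0.0631 to 0.151). With the mean of probe sets the log2 differences were -1.39 for Fst (0.076) and -1.37 for Chrdl1 (0.239). With only the 2 groups in the fit Fst was at -0.30 (0.793). That fit picks the probe set of highest mean anew over its own arrays, so the value need not be of the same Fst probe set. It is therefore not read as an effect of leaving out groups.

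Of 14 receptors and co-receptors, 1 rose and 2 fell in bound RNA of day 5 relative to day 0, where 23.7% of all genes passed. Acvr1, a type I BMP receptor, read 9.38, 9.28 and 9.94 at day 5 against 7.41, 7.48 and 9.36 at day 0, overlapping groups in which array 3 stood apart (1.45 ± 0.45, limma, adjusted p = 0.0345; 0.053 to 0.121 without array 1, 2, 10, 11 or 12). At day 2 it was 1.68 ± 0.45 above day 0 (limma, adjusted p = 0.0355; 0.0737 to 0.122 without array 1, 2, 8 or 9). Rgmb, a BMP co-receptor, fell by 1.42 ± 0.25 at day 5 (limma, adjusted p = 0.00218), with 8.60, 8.08 and 8.49 against 9.63, 9.58 and 10.22 at day 0, and by 1.28 ± 0.25 at day 2 (limma, adjusted p = 0.00807), which was -0.72 with the mean of its probe sets (0.248). In unbound RNA Rgmb differed by -0.90 ± 0.25 between day 5 and day 0 as well (limma, adjusted p = 0.0406). That call ended without any array of its groups (0.0578 to 0.163). Tgfbr3, betaglycan, was 9.94 ± 1.16 at day 5 and 11.45 ± 0.17 at day 0 in bound RNA (SD, n = 3; limma, adjusted p = 0.0288; 0.0536 to 0.0866 without array 1, 2 or 3). Its day 5 arrays read 10.49, 8.61 and 10.72, the lowest being array 11. With the mean of its probe sets the Tgfbr3 difference was -1.45 in place of -1.51 (limma, adjusted p = 0.0822). Bambi, a pseudoreceptor without a kinase domain, was higher in bound than in unbound RNA in every array, 11.07, 10.92 and 11.03 against 9.09, 8.81 and 8.90 at day 5, a difference of 2.07 ± 0.32 (limma, adjusted p = 0.00348). Eng, endoglin, was 2.7-fold higher in bound RNA at day 0 (limma, adjusted p = 0.0173; 0.051 to 0.0697 without array 2, 4, 5 or 6).

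Of the 8 Smads and Smurf ubiquitin ligases, 0 passed in 6 of the 7 comparisons by limma. Smad1 was the 1 to pass, in unbound RNA, where 10.4% of all genes passed. It read 12.57, 12.28 and 12.36 at day 5 against 11.53, 11.62 and 11.83 at day 0, a rise of 0.74 ± 0.19 (limma, adjusted p = 0.0305) that ended without any array of the 2 groups (0.0513 to 0.137). Of 13 target genes, Id3 rose in bound RNA of day 5 relative to day 0 and Id4 and Gata2 fell, where 23.7% of all genes passed. Id3 read 12.58, 12.37 and 12.64 against 11.44, 11.47 and 11.31, a difference of 1.13 ± 0.32 (limma, adjusted p = 0.0257), and was 1.44 ± 0.32 above unbound RNA of day 5 (limma, adjusted p = 0.0144). Id4 read 10.81, 10.70 and 10.72 against 11.59, 11.73 and 12.04, a difference of -1.04 ± 0.25 (limma, adjusted p = 0.0111), and with the mean of its probe sets -0.22 (0.664). Gata2 differed by -1.13 ± 0.26 (limma, adjusted p = 0.00848). Atoh8 was 5.57-fold higher in bound than in unbound RNA of day 5 (limma, adjusted p = 0.0234; 0.0566 to 0.0825 without array 10, 12, 13, 14 or 15). Id4 was lower there, by a difference of -0.80 ± 0.25 (limma, adjusted p = 0.0499). That Id4 call ended without any array of its groups (0.0992 to 0.129), and with the mean of probe sets the difference was -0.05 (0.937). Of all genes tested, 14.1% passed between fractions at day 5. The Id3 calls ended without array 2, 3, 10 or 12 (0.055 to 0.0752) and, between fractions, without array 14 or 15 (0.0544 and 0.0577).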

How the data were processed

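Polysomal RNA of bound and unbound fractions was amplified in 1 round with a NuGEN kit and hybridised to 15 Affymetrix arrays, per the labels' protocols. What the authors deposited is 1 linear intensity per probe set and array. How probes were summarised, background-corrected and scaled is not given in the sources used here. Values were transformed as log2 of the intensity plus 1 and quantile normalized between arrays. Of the 45037 probe sets, 34945 matched 1 gene through the platform annotation, 932 several and 9160 none. For each of 18193 genes the probe set of highest mean was used, and genes were kept when above the array's 25th percentile on at least 3 arrays, which left 16864 genes, 7 members among them. The floor of an array was the highest of its 27 negative-control probe sets.

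Differences were tested 2-sided with limma 3.58.1 in R 4.3.3, with 5 group means, 7 comparisons and moderated variances (10 residual and 2.32 prior degrees of freedom), adjusted over all genes by Benjamini-Hochberg, with 0.05 as the threshold. The 45037 probe sets were fitted again one by one. The code was tested on simulated data. Figures were drawn with matplotlib 3.10.9. The members, pathway lists and marker lists were chosen with earlier results of these data known. All members are named, and of each other list up to 4 genes a comparison with the largest differences that passed, from which those printed were taken, and for each member the 3 genes with the highest r. Alternatives were other scaling, filters, probe set rules, priors, weights and pseudocount, array brightness as a covariate, only the groups compared, and leaving out arrays.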

Additional observations from a re-analysis of the deposited data

How the results depend on the processing

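Of 867 member differences under alternative settings, 167 belonged to members that had passed, of which 110 kept the call, 57 lost it and 0 changed sign. Of the 700 others, 23 came to pass and 22 changed sign. In bound RNA of day 5 relative to day 0, Bmp7 passed in all 17 alternatives and Chrd in the 16 that tested it, the stricter filter having left it out. The number of members passing for bound against unbound RNA at day 5 (3) was 0 without the 4 bright arrays, 4 with array weights, 2 with the stricter filter, the trended and robust prior or every probe set fitted separately, and 1 to 3 with each array left out. At day 0 (1) it was 3 with array weights, 2 with a pseudocount of 16, the stricter filter at the 50th percentile or the trended and robust prior, 0 with brightness as a covariate, the mean of probe sets, every probe set fitted separately or without the bright arrays, and 0 to 1 with each array left out. In bound RNA, day 2 over day 0 (1) gave 0 with centring on medians, array weights, brightness as a covariate, the mean of probe sets, every probe set fitted separately, only the groups compared or without the bright arrays, and 0 to 1 with each array left out. Day 5 over day 0 (4) gave 5 with array weights, 3 with centring on medians, the stricter filter, the mean of probe sets or every probe set fitted separately, 2 with only the groups compared and 2 without the bright arrays, and 3 to 4 with each array left out. Day 5 over day 2 (0) gave 1 with a pseudocount of 16 and 0 to 3 with each array left out, the 3 without array 8. In unbound RNA, day 5 over day 0 (1) gave 4 with array weights or only the groups compared, 2 with the mean of probe sets, 0 with a pseudocount of 16, the stricter filter, the trended and robust prior, every probe set fitted separately or without the bright arrays, and 0 to 1 with each array left out. The change in enrichment had 0 in all of them. Of 38 calls of named pathway genes, 14 were kept without the bright arrays, 21 with the mean of probe sets, 22 with centring on medians or every probe set fitted separately, 27 with only the groups compared, 28 with brightness as a covariate, 34 without a filter and 37 with array weights, a pseudocount of 16 or the trended prior, and the stricter filter kept all 37 it tested. Fewer arrays in the fit and, for every probe set, more tests adjusted over are part of those settings. The share of all genes passing under each setting is not given here. A changed count is therefore not read as particular to the members or pathway genes. Fits on fewer arrays also pick the probe set of each gene anew. The cause of the other changes was not tested.

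The sign changes all belonged to differences that did not pass. Bmp6 between fractions was -0.08 at day 0 with brightness as a covariate and -0.15 to 0.65 with an array left out, and at day 5 it was 0.02 with array weights and -0.97 to 0.35 with an array left out. For the change in enrichment, Bmp6 was 0.01 with array weights and -1.21 to 0.11 with an array left out, and Bmp4 was 0.13 with centring on medians. Chrd between fractions at day 0 was -0.15 to 0.67 with an array left out, the lowest without array 2. In bound RNA of day 2 over day 0, Bmp2 was 0.16 with array weights, 0.06 with brightness as a covariate, 0.19 without the bright arrays and -1.14 to 0.23 with an array left out, and Grem1 was -1.37 to 0.16, the highest without array 1. For day 5 over day 2, Bmp4 was -0.01 without the bright arrays and -0.04 to 0.39 with an array left out, and Bmp6 was 0.03 with centring on medians, 0.30 with array weights and -0.54 to 0.25 with an array left out. Centring arrays on their medians put the median over all genes at 0.41 in place of 0.03 for bound minus unbound RNA at day 5, 0.53 in place of 0.09 for the change in it, 0.34 in place of 0.12 for bound day 5 over day 0, 0.30 in place of 0.09 for bound day 5 over day 2 and -0.22 in place of 0.01 for unbound RNA. No paired analysis was possible because the array numbers are unique to each array and no label pairs the fractions. Levels near the floor limit Grem1, Chrd and Nog.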
